A study of Mus musculus with 2 samples.

Results

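Tropomyosins, α-actinins and vinculin are the proteins that run along actin filaments, bundle them and tie them to sites of adhesion, and 7 of their genes were examined here: Tpm1, Tpm2, Tpm3, Tpm4, Actn1, Actn4 and Vcl. The genes were listed by name, because Tpm1, Tpm2 and Actn1 hold classic mutually exclusive exons that the polypyrimidine tract binding protein PTBP1 is known to regulate. They are 7 of 10298 genes with a measurable level. For their splicing, all exon trios (an exon with its upstream and downstream neighbour) within the gene on its strand were taken, of which 114 of 115 had at least 20 reads in each library, out of 145628 such trios in the whole data set.

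The study compared N2A cells, a mouse neuroblastoma line, transfected with a control shRNA (shControl) with N2A cells transfected with an shRNA against Ptbp1 (shptbp1), both by Lipofectamine and collected after 3 days. Poly(A) RNA was sequenced with a strand-specific protocol as 1 library per condition. Every difference below is therefore a difference between 2 libraries with no replicate check. The 95% intervals (Wilson for a share, Newcombe for a difference of shares) cover counting error only and leave out variation between libraries. They treat reads as independent, which reads amplified by PCR are not, so they can be too narrow even for counting error. Transfection can leave cells that took up no plasmid in both populations.

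A tropomyosin gene makes many proteins from one set of exons. The long forms start at exon 1a and the short forms at exon 1b, which has a promoter of its own inside the gene. Exon 6 comes as 6a or 6b, and the carboxyl end is encoded by one of several versions of exon 9, of which 9a is typical of striated muscle, 9c of brain and 9d of smooth muscle and non-muscle cells. In the α-actinins a mutually exclusive pair of exons encodes part of the EF-hand domain, and in Actn1 it separates the non-muscle from the smooth muscle form. PTBP1 binds pyrimidine-rich RNA, including UCUU and CUCUCU, and represses many exons of muscle and brain in other cells.

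The target of the shRNA was lower in the shptbp1 library. Junction reads of Ptbp1 numbered 33552 in the shControl library and 8768 in the shptbp1 library, a log2 ratio of -1.58 after scaling to all junction reads. Its neuronal paralog Ptbp2 had 3770 and 7159 junction reads, a log2 ratio of 1.28. The libraries held 74375994 and 58283702 reads on junctions. Of 12 neuronal and sympathetic markers, 8 stood at 1 ppm or more (parts per 1000000 of all transcript bases) in the shControl library and 9 in the shptbp1 library, among them Tubb3 and Hand2. Of 6 muscle markers, Myod1 and Des were listed at 0 in both libraries and Myh3 at 96.5 and 101 ppm, while summed levels were 96.5 and 102 ppm. Fibroblast markers (4 genes) summed to 0.949 and 5.40 ppm, leukocyte markers (1 of 2 with a value) to 0 and 0.0126 ppm, and astrocyte markers (2 genes) to 0.0932 and 0.131 ppm; their part in the results was not tested.

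Shares moved by 5 points or more at the first exon, exon 6 and exon 9 of Tpm1, at exon 9 of Tpm2 and at exons 6 and 9 of Tpm3. Exons 6a and 6b of Tpm1 are each 76 nucleotides long, lie on chromosome 9 (mm9, minus strand) at chr9:66880273-66880348 (6a) and chr9:66879758-66879833 (6b), and are wholly coding. They are shown because they compete for the same place in the protein. They read, 5′ to 3′ with capitals at the 33 positions where one differs from the other:
Tpm1 exon 6a: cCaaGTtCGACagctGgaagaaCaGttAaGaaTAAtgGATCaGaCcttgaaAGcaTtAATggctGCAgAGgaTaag
Tpm1 exon 6b: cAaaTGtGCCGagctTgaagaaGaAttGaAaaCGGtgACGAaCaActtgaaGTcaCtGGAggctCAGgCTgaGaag

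The 43 identical positions make up 56.6% of the exon. Between genes the like-named exons were closer. Exon 6b of Tpm1 matched exon 6b of Tpm3 at 57 of 76 positions and that of Tpm2 at 56, whereas exon 6a of Tpm1 matched those of Tpm3 and Tpm2 at 50 and 49. The 100 nucleotides that lead into each exon are shown because PTBP1 is known to bind such stretches, with matches to TCTT or CTCTCT in capitals (transcript strand only, where the motifs may overlap):
Tpm1 intron before 6a, chr9:66880349-66880448: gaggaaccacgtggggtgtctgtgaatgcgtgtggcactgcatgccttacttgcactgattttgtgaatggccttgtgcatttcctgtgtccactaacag
Tpm1 intron before 6b, chr9:66879834-66879933: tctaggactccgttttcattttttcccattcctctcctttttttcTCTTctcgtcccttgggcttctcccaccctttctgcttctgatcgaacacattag

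Pyrimidines made up 78% of the stretch before 6b and 53% of that before 6a. Among 113619 such stretches before internal exons of the database, 0.463% were at or above the first value and 65.4% at or above the second, and the median was 55%. TCTT occurred 1 time before 6b and was not found before 6a, and it occurred in 64.0% of all stretches. CTCTCT was found in neither, against 9.76% of all stretches.

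Exon 6b gained on exon 6a in the shptbp1 library. In their own trios, exon 6a had 286 reads on its 5′ junction and 355 on its 3′ junction in the shControl library, and 57 and 71 in the shptbp1 library. Exon 6b had 452 and 724 reads in the shControl library and 488 and 851 in the shptbp1 library. Reads of 6a were thus lower on both sides and those of 6b higher on both sides, in a library with fewer junction reads in all. The share of 6b among the reads of the pair was 64.7% (interval 61.6 to 67.8) in the shControl library and 91.3% (89.0 to 93.1) in the shptbp1 library, a difference of 26.6 points (22.8 to 30.2). The trios themselves hid most of this shift, because each one sets an exon against direct joining of its flanks: the PSI (percent spliced in) of 6a was 97.3 and 93.4. Direct joining of exon 5 to exon 7 had 11 and 6 reads.

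Exon 2 of Tpm1 gave no such shift. Its versions 2a and 2b, each of 126 nucleotides, are wholly coding, and 2b is the common version outside smooth muscle. In its own trio, 2a had 18 reads on its 5′ junction and 0 on its 3′ junction in the shControl library, and 2b had 326 and 337. The shptbp1 library had 6 and 0 for 2a and 166 and 183 for 2b. The share of 2b was 97.4% and 98.3%, and the interval of the difference ran from -2.44 to 3.51 points. The stretch before 2b had 72% pyrimidines and that before 2a 65%, and TCTT was found in neither.

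The first exon of Tpm1 shifted in favour of 1b. Of the reads that enter exon 3, 344 came from exon 1b and 343 from exon 2b in the shControl library, while 452 and 191 did so in the shptbp1 library. The share of 1b, which opens the short forms, was 49.4% (45.7 to 53.1) and then 69.2% (65.6 to 72.6), a difference of 19.9 points (14.7 to 24.9). Exon 2a gave 10 reads in each library on its junction to exon 3, counted in the trio with the most reads on it. In Tpm3, the same choice showed no such difference, with 1900 of 2131 reads from exon 1b in the shControl library and 859 of 971 in the shptbp1 library, or 89.2% and 88.5% (interval of the difference -3.19 to 1.63 points).

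At the carboxyl end, exon 9d lost share to exons 9a, 9b and 9c and remained the version with the most reads. The coding parts of 9a, 9c and 9d are shown because they give tropomyosin different carboxyl ends. Each starts at the junction with exon 8 and ends before the stop codon of the annotation, except 9a, whose 79-nucleotide version is shown whole:
Tpm1 exon 9a, chr9:66877471-66877549: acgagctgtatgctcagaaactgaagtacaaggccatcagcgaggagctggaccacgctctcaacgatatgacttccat
Tpm1 exon 9c, chr9:66872302-66872372: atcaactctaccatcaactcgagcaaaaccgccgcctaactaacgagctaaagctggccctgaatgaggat
Tpm1 exon 9d, chr9:66871169-66871248: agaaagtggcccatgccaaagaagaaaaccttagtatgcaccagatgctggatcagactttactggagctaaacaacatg

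Exon 8 was joined to 9d in 1330 reads of the shControl library and 527 of the shptbp1 library. To 9c it was joined in 149 and 372 reads, to 9a in 142 and 257, and directly to 9b in 2 and 78. Reads to 9d were lower and reads to the other exons higher in the shptbp1 library, although all reads that left exon 8 went from 1623 to 1234. The share of 9d was 81.9% (80.0 to 83.7) and 42.7% (40.0 to 45.5), a difference of -39.2 points (-42.5 to -35.8). The brain exon 9c held 9.18% (7.87 to 10.7) and 30.1% (27.7 to 32.8), a gain of 21.0 points (18.1 to 23.9). For the striated muscle exon 9a the shares were 8.75% (7.47 to 10.2) and 20.8% (18.7 to 23.2), a gain of 12.1 points (9.45 to 14.8). Direct joining to 9b held 0.123% and 6.32%, a gain of 6.20 points (4.93 to 7.70).

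In the RefSeq isoforms that hold exon 9b, it follows 9a. A longer version of 9a with the same acceptor (chr9:66876828-66877549) is also in the database. Reads that join exon 8 to 9a do not separate these versions. The acceptor of 9b was joined to 9a in 24 reads of the shControl library and 210 of the shptbp1 library, and to exon 8 in 2 and 78. Exon 9a and exon 9b therefore both had more reads in the shptbp1 library, yet the part of 9b reads that came through 9a was lower, at 92.3% (75.9 to 97.9) against 72.9% (67.5 to 77.7). The trios of 9a between exon 8 and 9b report only this last proportion, with PSI of 92.4 and 72.5 in one trio and 93.1 and 74.5 in the other. A PSI that fell thus stood beside an exon whose junction reads were higher. Read coverage, which is not scaled to library size, went in the same direction as the junctions for each exon. It was 67.1 and 430 reads per 100 nucleotides on 9a, 48.2 and 237 on 9b, 61.7 and 226 on 9c, and 1264 and 653 on 9d, in the shControl and shptbp1 libraries. On 9a it rose by a larger factor than the junction reads from exon 8 (142 and 257).

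**Figure D1:**
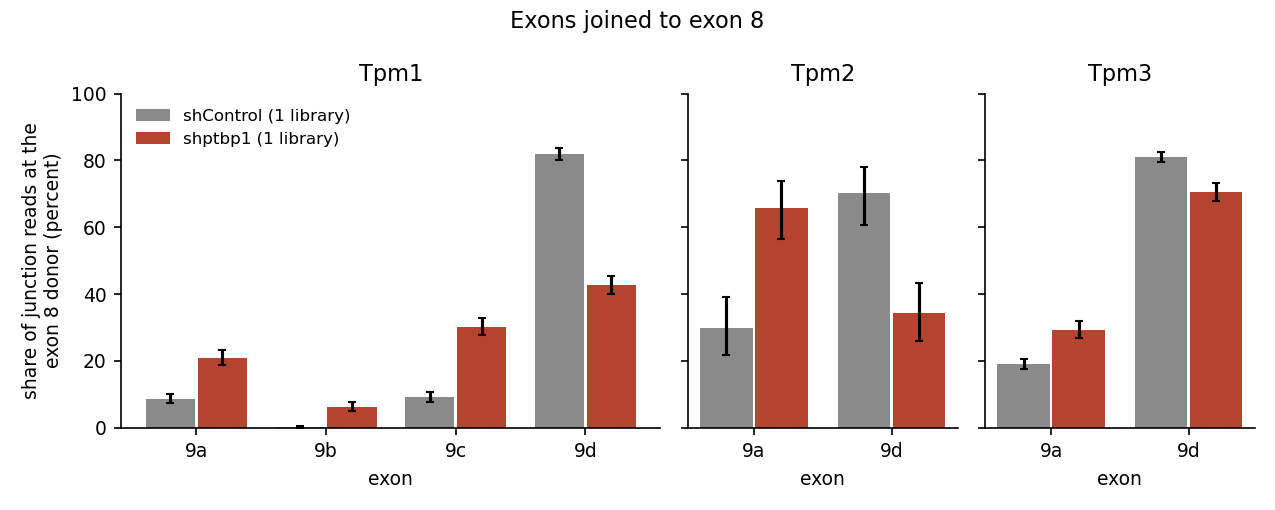
Share of junction reads (percent, y axis) that join exon 8 to each version of exon 9 (x axis) in Tpm1, Tpm2 and Tpm3, with grey bars for the shControl library, red bars for the shptbp1 library and 95% Wilson intervals. In each gene the share of 9d was lower in the shptbp1 library, from 81.9% to 42.7% in Tpm1, and that of 9a was higher.

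The introns that lead into these exons are shown with TCTT and CTCTCT in capitals, since 9c gained most and 9d lost most:
Tpm1 intron before 9a, chr9:66877550-66877649: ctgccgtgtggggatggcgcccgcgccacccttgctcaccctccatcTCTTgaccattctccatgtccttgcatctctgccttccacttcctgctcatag
Tpm1 intron before 9b, chr9:66875975-66876074: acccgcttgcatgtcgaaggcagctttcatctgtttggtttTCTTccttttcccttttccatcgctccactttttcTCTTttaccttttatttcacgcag
Tpm1 intron before 9c, chr9:66872373-66872472: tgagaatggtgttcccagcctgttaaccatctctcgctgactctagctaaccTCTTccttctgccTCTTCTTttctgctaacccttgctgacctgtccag
Tpm1 intron before 9d, chr9:66871249-66871348: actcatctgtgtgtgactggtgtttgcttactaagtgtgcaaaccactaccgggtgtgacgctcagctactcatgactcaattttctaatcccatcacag

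The stretch before 9c held 3 matches to TCTT, a number that 9.61% of all stretches reached or passed, and 69% pyrimidines. The stretches before 9a and 9b held 1 and 2 matches, with 70% and 75% pyrimidines. The stretch before 9d held none and had 57% pyrimidines, near the median. CTCTCT was in none of the 4.

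Tpm2, the β-tropomyosin gene, was expressed at a low level and showed the same direction at exon 9. Exon 8 was joined to 9a, the skeletal muscle version, in 31 reads of the shControl library and 73 of the shptbp1 library, and to 9d in 73 and 38. By these junction reads, the leading version changed from 9d to 9a. The share of 9a was 29.8% (21.9 to 39.2) and 65.8% (56.5 to 73.9), a difference of 36.0 points (22.8 to 47.4). The trio of this choice, scored as an alternative acceptor, had PSI of 24.1 and 53.4. Exon 6 of Tpm2 stood otherwise: 6b, the skeletal muscle version, had 49 and 92 reads on its 2 junctions in the shControl library and 60 and 71 in the shptbp1 library, against 1 and 2 and then 0 and 1 for 6a. Its share was 97.9% and 99.2%, with an interval of the difference from -4.98 to 7.82 points, so no difference was detectable at this depth. Before 9d, which lost share, pyrimidines made up 77%, a value that 0.557% of all stretches reached or passed, and TCTT was not found. The stretches before 6b and 6a, whose shares showed no detectable difference, had 76% and 50%. The stretch before 9a had 87% pyrimidines, a value that 0.109% of all stretches reached or passed, and held TCTT 2 times:
Tpm2 intron before 9a, chr4:43528876-43528975: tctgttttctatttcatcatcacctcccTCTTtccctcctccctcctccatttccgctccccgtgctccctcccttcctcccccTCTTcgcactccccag

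Tpm3 shifted at both places, by fewer points than Tpm1. Its exons 6a, at chr3:89892323-89892398, and 6b, at chr3:89892970-89893045 on the plus strand, are coding exons of 76 nucleotides that share 39 positions (51.3%), and they read as follows with the differing bases in capitals:
Tpm3 exon 6a: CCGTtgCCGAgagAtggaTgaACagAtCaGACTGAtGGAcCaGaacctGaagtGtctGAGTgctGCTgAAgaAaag
Tpm3 exon 6b: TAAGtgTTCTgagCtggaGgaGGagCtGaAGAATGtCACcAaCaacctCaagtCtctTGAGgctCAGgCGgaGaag

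In its own trio, 6a had 2131 and 1244 reads on its 2 junctions in the shControl library and 746 and 427 in the shptbp1 library. Exon 6b had 98 and 74, and then 130 and 126. The version that gained was again the downstream one, though it stayed the lesser. Its share was 4.85% (3.94 to 5.95) and 17.9% (15.3 to 20.9), a difference of 13.1 points (10.2 to 16.2). With the largest count of each junction over all trios, the shares were 11.3% and 23.0%. Exon 9a of Tpm3, of 79 nucleotides at chr3:89894935-89895013, matched exon 9a of Tpm1 at 70 of 79 positions. It had 499 and 397 reads on its junctions and 2131 reads that skipped it to 9d in the shControl library, and 332, 250 and 799 in the shptbp1 library. Its 2 trios had PSI of 18.6 and 27.5, and of 17.3 and 26.7. At the exon 8 donor its share was 19.0% (17.5 to 20.5) and 29.4% (26.8 to 32.1), a difference of 10.4 points (7.37 to 13.5). All reads of exon 9a were fewer in the shptbp1 library, but those of 9d were reduced further. Because 9a is also joined to 9d, it is added before 9d in those transcripts and does not replace it. Which carboxyl end such transcripts encode was not examined. Exons of Tpm3 have near-identical copies elsewhere in the genome, and how reads were split among them was not tested.

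The stretches before the exons of Tpm3 that gained are shown, with matches in capitals, beside that before 6a:
Tpm3 intron before 6a, chr3:89892223-89892322: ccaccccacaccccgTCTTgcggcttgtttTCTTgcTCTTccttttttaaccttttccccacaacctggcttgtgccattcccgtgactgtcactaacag
Tpm3 intron before 6b, chr3:89892870-89892969: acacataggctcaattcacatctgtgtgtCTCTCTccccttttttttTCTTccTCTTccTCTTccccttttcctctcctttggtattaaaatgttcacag
Tpm3 intron before 9a, chr3:89894835-89894934: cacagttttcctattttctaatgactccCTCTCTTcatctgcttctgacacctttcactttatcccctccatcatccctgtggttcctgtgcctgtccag

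Before 6b stood 1 CTCTCT and 3 TCTT in 76% pyrimidines. Before 9a stood 1 CTCTCT and 1 TCTT, which overlap, in 75% pyrimidines. Exon 6a, which lost share, was also preceded by 3 TCTT in 72% pyrimidines. In Tpm3 the count of TCTT was thus equal for 6a and 6b, while CTCTCT stood before 6b and not before 6a. Pyrimidine content separated 6a and 6b less than in Tpm1. The stretch before 9d, which also lost share, is not shown. It held 2 TCTT, against 1 before 9a, and no CTCTCT, in 62% pyrimidines.

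In Actn1, whose product bundles actin filaments and is found in stress fibres and adhesions, the classic pair showed no detectable difference. The 81-nucleotide exon (19a here, of the non-muscle form, chr12:81271673-81271753) and the 66-nucleotide exon (19b, of the smooth muscle form, chr12:81271170-81271235) lie on the minus strand and are coding. The stretch before 19b had 72% pyrimidines, a value that 1.85% of all stretches reached or passed, and held TCTT 2 times. The stretch before 19a had 68% pyrimidines and held TCTT 1 time. Exon 19a had 1417 and 1232 reads on its junctions in the shControl library and 921 and 791 in the shptbp1 library, and 19b had 2 and 63, and then 6 and 52. The share of 19b was 2.39% (1.71 to 3.35) and 3.28% (2.29 to 4.67), and the interval of the difference, -0.493 to 2.43 points, holds 0. Counted at the acceptor of the exon that follows, 19b had 121 and 87 reads, or 8.86% and 9.82%, so its level depends on which trio is counted while the lack of a detectable difference does not. The trio of 19b against skipping had PSI of 11.0 and 14.9, on 13 and 8 reads of skipping. By the junction reads of that trio alone, PSI was 71.4 and 78.4, so its level differs greatly by the way it is counted.

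**Figure D2:**
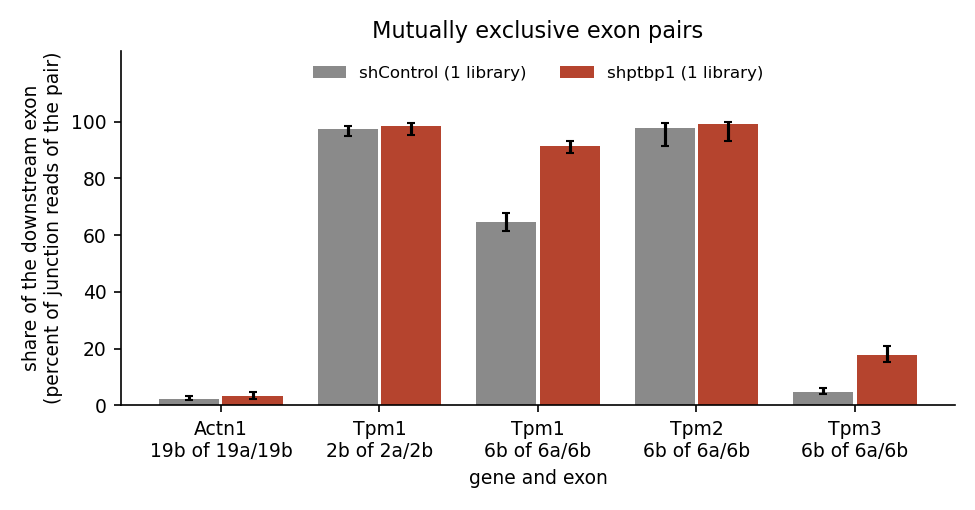
Share of the downstream exon (percent, y axis) among the junction reads of each mutually exclusive pair of exons (x axis), with grey bars for the shControl library, red bars for the shptbp1 library and 95% Wilson intervals. Exon 6b was higher in the shptbp1 library in Tpm1 (64.7% to 91.3%) and Tpm3 (4.85% to 17.9%), while the intervals overlap for the other 3 pairs.

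In all, 2 of the 5 pairs moved by 5 points or more. Over the whole data set 122 pairs met the same criteria, and 40.2% of them moved as far, so the share among these genes was like that background. Of splice sites with alternative partners, 10 of 14 moved by 5 points or more, against 42.7% of 18388 sites. These 10 lay in Tpm1 (5 of 6), Tpm2 (1 of 1) and Tpm3 (4 of 5), and some are the 2 ends of one choice, while Actn1 had 2 such sites and neither moved.

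Actn4, the other α-actinin of non-muscle cells, held an exon that the trio database does not list. The RefSeq form contains an 81-nucleotide exon at chr7:29680451-29680531, at the place of the Actn1 pair. A transcript assembled from the shptbp1 library, and none from the shControl library, held a 66-nucleotide exon at chr7:29680140-29680205 in its stead. The exons of Actn1 and Actn4 are shown side by side, with capitals at the 17 of 66 positions that differ:
Actn1 66-nucleotide exon: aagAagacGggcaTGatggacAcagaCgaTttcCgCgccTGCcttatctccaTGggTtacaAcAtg
Actn4 66-nucleotide exon: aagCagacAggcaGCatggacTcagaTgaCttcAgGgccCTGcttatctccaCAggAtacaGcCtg

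The 81-nucleotide exons of the 2 genes were alike to a similar degree, at 58 of 81 positions. The assembled transcript had a depth of 116 per base in the shptbp1 library, beside 367 for the RefSeq form, or 23.9% of the depth of the gene. No junction reads of the 66-nucleotide exon are given, so its share was not measured. Junctions of the 81-nucleotide exon had 1189 and 1206 reads in the shControl library and 538 and 557 in the shptbp1 library, log2 ratios of -0.79 and -0.76. The other 18 junctions of the gene had a median of -0.67 and a range of -0.86 to -0.49, so the exon's own junctions lay within the range of the others. Its PSI was 98.1 and 94.7, with 22 and 21 reads of skipping, and the junction PSI differed by -1.99 points (-4.07 to -0.346).

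Among all 114 trios, PSI rose by 5 points or more in 3 and fell in 2. Those that rose were the alternative acceptor of Tpm2 and the 2 trios of Tpm3 exon 9a. Those that fell were the 2 trios of Tpm1 exon 9a. The counts are 2.63% and 1.75% of the trios, and 2.73% and 2.66% of all trios in the data set rose and fell as far. The trio just inside the limit was that of Tpm3 exon 9a at 8.9 points, and those just outside were Tpm1 6a at -3.9 and Actn1 19b at 3.9 points. PSI was above 95 in both libraries in 103 trios. Tpm4, a non-muscle tropomyosin, had 6 trios with PSI of 99.9 in both libraries, and Vcl, which links adhesions to actin, had 20 trios with PSI of 99.2 or more. The largest difference in Vcl was -0.7 points, for a 204-nucleotide exon that was skipped in 0 and 3 reads.

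**Figure D3:**
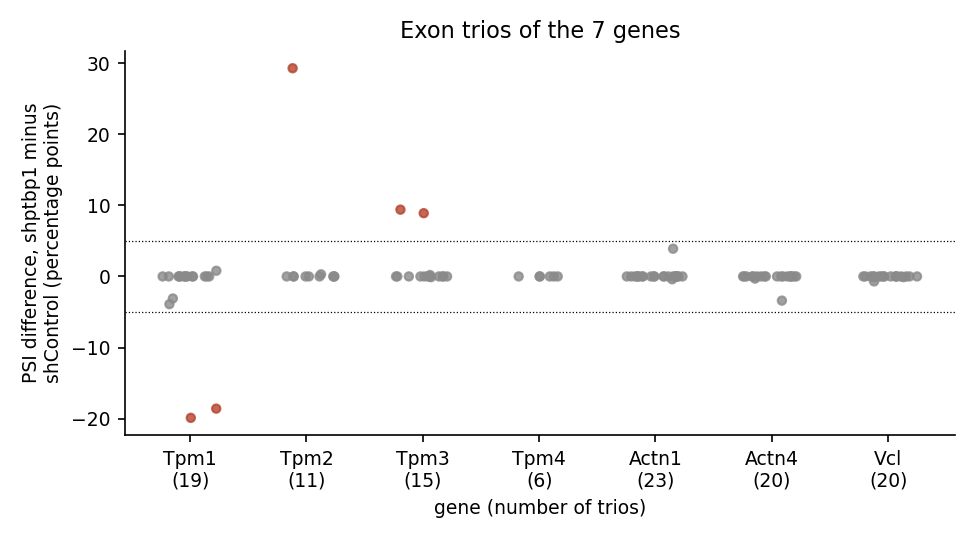
Difference in PSI (knockdown minus shControl library, percentage points, y axis) of each exon trio of the 7 genes (x axis, with the number of trios), where red points lie past the dotted lines at 5 points in either direction. The 5 red points are 2 trios of Tpm1, 1 of Tpm2 and 2 of Tpm3, and no trio of the other genes reached 5 points.

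Gene levels were lower for some members and not for others, and the measure mattered. Levels are given in 3 ways: bases on RefSeq isoforms per 1000000 bases of the library (ppm), the same with assembled isoforms of the gene added, and reads on junctions that hold at least 95% of the reads at both of their sites. The median gene stood at 0.06 on the log2 scale by the first measure and at 0.17 by junction reads. Fewer cells that express a gene and less RNA per cell cannot be told apart in such data.

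Tpm3 was lower by junction reads, with 8599 and 3502 reads (116 and 60.1 per 1000000 junction reads, log2 ratio -0.94, range of its 3 junctions -0.97 to -0.91). Its RefSeq isoform alone gave 38.1 and 27.5 ppm, a log2 ratio of -0.47, while the sum with assembled isoforms gave 165 and 80.2 ppm and -1.04. Tpm4 had 13286 and 6705 junction reads, a log2 ratio of -0.63 (7 junctions, -0.75 to -0.23), with 115 and 101 ppm on its RefSeq isoform (-0.19) and 190.2 and 109.8 ppm with assembled isoforms (-0.79). Both tropomyosins were thus lower by every measure, and past 1.5-fold by those that count reads outside the RefSeq isoform.

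Actn4 was lower by all 3 measures. It had 27276 and 13145 junction reads, a log2 ratio of -0.70 over 20 junctions (-0.86 to -0.49), 199 and 90.5 ppm on its RefSeq isoform (-1.14), and 199 and 119 ppm with the assembled one (-0.75). Vcl had 9622 and 5484 junction reads (-0.46, 20 junctions from -0.70 to -0.17) and 161.9 and 109.7 ppm (-0.56), just under 1.5-fold. Actn1 had 24799 and 16193 junction reads (-0.26, 18 junctions from -0.46 to -0.13) and 174 and 162 ppm (-0.10).

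Tpm1 and Tpm2 were not lower by junction reads. Tpm1 had 3778 and 3285 reads on 3 shared junctions, a log2 ratio of 0.15, and 92.6 and 90.4 ppm with the assembled isoform (-0.03). Its RefSeq isoforms alone gave 92.6 and 51.8 ppm (-0.84), but Cufflinks marked the fit of this gene in the shptbp1 library as failed, and the remaining bases sat on an assembled form. Tpm2 had 654 and 555 junction reads (0.12, 7 junctions from -0.09 to 0.46), 2.16 and 2.95 ppm on its RefSeq isoform (0.44) and 5.23 and 5.38 ppm with assembled isoforms (0.04). The order of members by junction ratio was Tpm3, Actn4, Tpm4, Vcl, Actn1, Tpm2 and Tpm1, and the junction ranges of neighbours in that order overlap except between Tpm3 and Actn4 and between Actn1 and Tpm2.

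**Figure D4:**
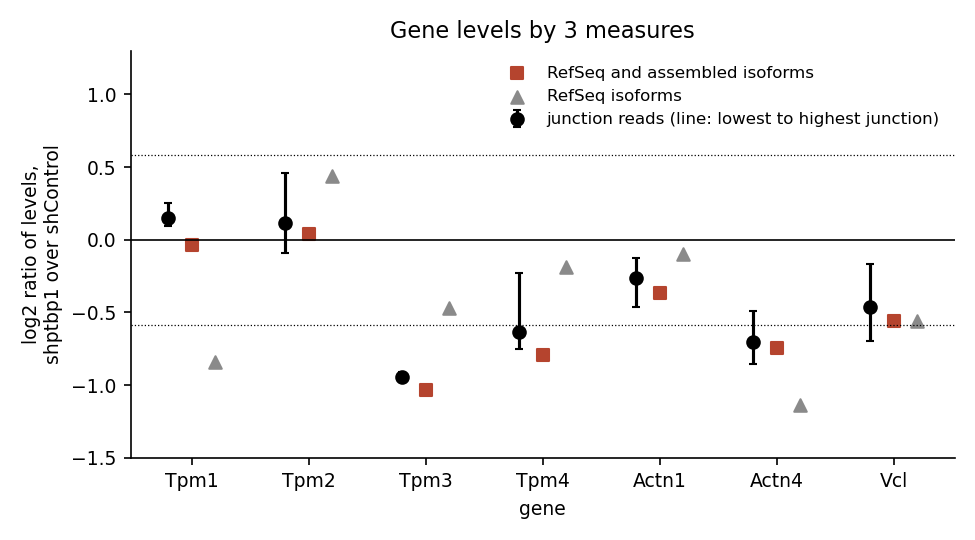
Log2 ratio of the level in the shptbp1 library over that in the shControl library (y axis) for the 7 genes (x axis) by junction reads (black circles, with lines from the lowest to the highest junction), by RefSeq and assembled isoforms (red squares) and by RefSeq isoforms alone (grey triangles); dotted lines mark 1.5-fold. Junction reads put Tpm3 at -0.94 and Tpm1 at 0.15, and the triangle of Tpm1 at -0.84 stands apart from its other marks.

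By RefSeq isoforms, 2 of the 7 genes were 1.5-fold or more lower (Tpm1 and Actn4) and none was that much higher, where 12.0% of 10298 genes were lower and 19.4% higher. By junction reads, 3 of 7 (Tpm3, Tpm4 and Actn4) were as much lower and none higher, where 1.56% of 10466 genes were lower and 17.8% higher. The same limit thus takes different members by the 2 measures, with Actn4 in both.

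The isoforms that Cufflinks fitted gave the exon choices in another form. In the shControl library the depth of Tpm1 lay on 3 RefSeq isoforms: a long one with 2b, 6b and 9d (22.8 per base for each 1000000000 bases of the library, 41.6% of the gene), a short one with 6a and 9d (20.6, 37.6%) and a short one with 6b and 9d (11.4, 20.8%). The other 7 were listed at 0. In the shptbp1 library the short form with 6b and 9d stood at 18.9 (42.4%) and that with 6a and 9d at 5.03 (11.3%). The long form with 9d was listed at 0, a long form with 6b, 9a and 9b stood at 6.85 (15.4%), and a short assembled form with 6b and 9c stood at 13.8 (31.0%). The failed status applies to all of the knockdown values. For Tpm2, the RefSeq isoform with 6b and 9a had a depth of 0.938 and 1.28, and the assembled form with 6b and 9d of 2.90 and 2.10. By this depth 9d led in both libraries, whereas by junction reads 9a led in the shptbp1 library. For Tpm3, an assembled form with 6b and 9d took 71.4% of the depth in the shControl library, whereas 4.85% of the junction reads of the pair lay on 6b, so the isoform split of Tpm3 disagrees with its junctions.

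Genes that act on the same filaments were taken from a list of 56, of which 43 had a mean level of at least 1 ppm. Of these, 9 were 1.5-fold or more lower by RefSeq isoforms, 6 higher and 28 between, where 12.0% of all genes were lower and 19.4% higher, with a median log2 ratio of -0.23 beside 0.06 for all genes. By junction reads, 5 of 45 were lower and 4 higher, where 1.56% of all genes were lower and 17.8% higher, with a median of -0.04 beside 0.17. Lower by both were 4 genes. Cytoplasmic γ-actin, Actg1, had 154069 and 65255 junction reads (-0.89) and a RefSeq log2 ratio of -1.90. Tmod3, which caps the pointed ends of filaments coated with tropomyosin, had 6800 and 2517 (-1.08 and -1.07). For Cnn2, a calponin that binds actin, the reads were 4388 and 1694 (-1.02 and -1.14). Smooth muscle γ-actin, Actg2, had 348 and 177 (-0.62 and -1.18).

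The largest RefSeq ratios of the list did not hold by junction reads. Tln2, a talin that joins integrins to vinculin and actin, was listed at 0 in the shControl library and 32.5 ppm in the shptbp1 library, yet had 7696 and 5746 junction reads (-0.07). Myl6, a myosin light chain, was listed at 0 and 6.94 ppm with 45524 and 28171 junction reads (-0.34). The myosin light chain Myl12a had a RefSeq ratio of -0.94 and no junction of its own past the limits. Myl9, another light chain, stood at -0.75 and -0.55, and Pfn1, which binds actin monomers, at -0.74 and -0.22. Caldesmon, Cald1, whose product binds actin beside tropomyosin, went opposite ways, with a RefSeq ratio of 0.59 and a junction ratio of -0.89, while paxillin, Pxn, an adaptor of adhesions, was the 1 gene higher by both, at 0.63 and 0.83. These 2 genes are named after their values were seen.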

How the data were processed

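The authors mapped reads of 100 bases to mm9 and deposited, per library, SpliceTrap tables and Cufflinks transcripts. Per the labels, CASAVA, TopHat and Cufflinks were used, with versions not given in the sources used here. The authors deposited, for each exon trio, a fraction (the inclusion ratio, both uncorrected and corrected by SpliceTrap), the raw count of reads on each junction, and the coverage as an unscaled signal in reads per 100 nucleotides. For isoforms the authors deposited coverage as mean depth per base, a signal, and FPKM. Tables of the authors' gene sums were not used.

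PSI was the corrected fraction as a percent. Only reads inside a trio are counted on its junctions, so the count of a junction was taken from the trio with the most reads in both libraries together, except for mutually exclusive pairs, which used each exon's own trio and the mean of its 2 junctions. Pairs were non-overlapping exons with the same flanks, never joined and never in one RefSeq transcript. Sites were alternative where a second partner held 5% or more of the reads in either library, with at least 20 reads in each. Bases were coverage times length, scaled to the library totals of 19.0 and 15.5 Gb, and log2 ratios used a pseudocount of 0.1 ppm, so they understate changes of low genes. RefSeq IDs were paired with symbols for 26472 of 27601. Junction sums had 0.5 reads added. Exon letters follow genomic order from 5′ to 3′. Sequences came from the NCBIM37 assembly (mm9), where 99.7% of acceptors read AG and 98.8% of donors GT.

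No test of the conditions was made, since each has 1 library and no replicate. The members, the gene lists and the rule for named genes (every member, its pairs, isoforms and trios that moved, the 10 list genes with the largest change past 1.5-fold, and Ptbp1, Ptbp2 and Ptbp3) were chosen with earlier results of these data known. Some results that this rule names are not reported here. Ptbp3 had RefSeq levels of 127 and 57.6 ppm. The junction measure of gene levels and the largest count over all trios were chosen after seeing the data. Intervals and levels were tested on simulated binomial and Poisson counts. These hold no variation between libraries and no PCR copies, so the test covers counting error only. Calculations ran in pandas 2.3.3 and NumPy 2.4.6 under Python 3.11.15, and figures in matplotlib 3.10.9.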

Additional observations from a re-analysis of the deposited data

How the results depend on the processing

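Counts of trios that moved by 5 points (3 rose and 2 fell) were the same with a minimum of 10 or 50 reads and with the ratio before correction. Junction PSI gave 4 and 3, and a limit of 10 points left 1 trio that rose. Of the pairs, the gain of Tpm1 exon 6b was 21.0 points by RefSeq isoforms, and that of Tpm3 exon 6b was 17.2 points by the 3′ junction alone. RefSeq isoforms hold both exons only in Tpm1. For gene levels, Tpm1 was at -0.035 with all isoforms of the locus and turned to 0.15 by junction reads. Tpm3 passed 1.5-fold lower by deposited FPKM (-0.65), all isoforms (-1.04) and junction reads (-0.94), Tpm4 by all isoforms (-0.79) and junction reads (-0.63), and Vcl with the median of all genes set to 0 (-0.62) and by deposited FPKM (-0.75). In the actin list, a limit of 2-fold left 2 genes higher and 5 lower, and junction reads left 5 lower. No paired analysis was possible because each condition has 1 library.

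Low depth limits Tpm2 (104 and 111 reads at the exon 8 donor) and Tpm1 exon 2a, where a count of 0 to 18 reads decides a junction. For Actn1 exon 19b the choice of trio matters. Its 5′ junction had 2 and 6 reads in its own trio, but 106 and 67 in the trio with the most reads on it. Differences between libraries other than the shRNA cannot be told apart from it.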
